A study of Mus musculus with 6 samples.

Results

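Genes of the NRF2, glutathione and antioxidant system were followed in RNA from 3T3-L1 cells with and without Ube3d. The set holds 44 genes of the 24421 in the deposited table, chosen by name: the NRF2 pathway, glutathione enzymes, peroxidases, the thioredoxin system, dismutases, the pentose phosphate pathway and ferritin. The choice was made with earlier results of these data known. All 44 were found. 3T3-L1 is an established mouse embryonic fibroblast line used as a preadipocyte model. The groups were 3 wild-type libraries and 3 libraries of cells with a Ube3d knockout, all from undifferentiated cells in log-phase growth that never passed 80% confluence. The labels number 3 biological replicates per genotype. They do not state whether the knockout cells are a single clone, and p-values cover the spread among these 6 libraries alone. The UBE3D protein is a putative E3 ligase that binds the nuclease of pre-mRNA 3′ end processing.

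NRF2, encoded by Nfe2l2, is a transcription factor that is held in the cytoplasm and sent to the proteasome by KEAP1 in unstressed cells. When oxidants or electrophiles modify KEAP1, NRF2 accumulates, enters the nucleus, pairs with small MAF proteins and binds antioxidant response elements. Its known targets make and reduce glutathione, regenerate thioredoxin, conjugate electrophiles, supply NADPH through the pentose phosphate pathway and store iron. Peroxidases, peroxiredoxins, catalase and superoxide dismutases remove the oxidants themselves, partly outside NRF2 control.

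Levels are given as CPM, the count scaled to a common library total with TMM factors, and levels of different genes are compared as RPKM, which is CPM per kilobase of exon. Values are means ± SD with n = 3 libraries per genotype. Fold changes are knockout over wild type from edgeR's quasi-likelihood test. The SE, on the log2 scale, was derived as the absolute log2 change over the square root of that test's F statistic. A gene was called higher or lower at a Benjamini-Hochberg adjusted p under 0.05 over all 12947 tested genes. Ube3d, listed under its older symbol Ube2cbp, had 56, 43 and 53 counts in the knockout libraries and 145, 229 and 173 in the wild-type libraries, a 3.62-fold lower level (log2 −1.86, SE 0.15, adjusted p = 6.6e-18) without overlap. Libraries held 23767181 to 29389480 counts. Of 10 tested fibroblast and preadipocyte markers, 7 were lower and 2 higher in the knockout. Over all tested genes 31.2% were lower and 30.3% higher. The 2 higher were Dcn (log2 2.48, SE 0.04, adjusted p = 9.9e-59) and Dlk1 (log2 1.12, SE 0.03, adjusted p = 1.3e-43). The 7 lower ranged from log2 −0.37 for Thy1 to −1.18 for Col1a1. The summed level of the 11 listed genes, none at 0 in every library, was 11855 to 12231 CPM against 14097 to 14567 CPM in wild type. Markers of mature adipocytes, 7 listed, summed to 0.904 to 1.21 CPM in the knockout and 3.47 to 3.92 CPM in wild type, with Lep and Retn at 0. Their only tested gene, Fabp4, a fatty acid carrier, was lower (log2 −1.83, SE 0.20, adjusted p = 1.7e-12). Macrophage markers, 7 found, summed to 15.98 to 16.3 CPM in knockout cells and 16.1 to 16.8 CPM in wild-type cells, with Adgre1 at 0. Of 4 tested, Cd68 was higher (log2 0.71, adjusted p = 0.00052) and Lyz2 lower (log2 −1.55, adjusted p = 0.00587). Endothelial markers, 5 listed, summed to 1.45 to 2.42 CPM in the knockout and 0.5997 to 1.08 CPM in wild type, and Vwf, the only one tested, was higher (log2 2.13, SE 0.36, adjusted p = 4.4e-07). Epithelial markers summed to at most 0.623 CPM, with Epcam and Krt18 at 0, and hepatocyte markers to at most 0.101 CPM, with Ttr at 0. The part of these marker differences in the results on the members was not tested.

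Most of the antioxidant genes were lower in the knockout, and most of these changed by less than 1.5-fold. In bulk RNA, fewer cells of a kind and less RNA per cell cannot be told apart. Of the 44 members, 42 had enough counts to test, and 27 were called lower, 5 higher and 10 neither way. The share called was 76.2%, against 61.4% of all tested genes, and the share called lower was 64.3%, against a background of 31.2%. The share called higher was 11.9%, against 30.3%. The median log2 change of the tested members was −0.18, against 0.004 over all tested genes. Most members were abundant. Among genes at a mean of 20 CPM or more, a level chosen after the values were seen, 25 of 39 members were lower and 5 higher (76.9% called). Of all 7086 such genes 69.1% were called, 39.4% lower and 29.7% higher. Changes of at least 1.5-fold were called for 6 of 42 members (14.3%), with a background of 15.8% of tested genes. At 20 CPM or more these were 4 of 39 members, with a background of 5.87%. The knockout libraries lay wholly below the wild-type libraries for 25 tested members and wholly above for 4, against backgrounds of 32.5% and 31.8%. Both directions together come to 29 of 42 members, with a background of 64.3%. The 2 untested members were near absent. Gsta1 had 1 to 3 counts in the knockout libraries and 3 or 4 in the wild-type libraries, and Gpx3, the secreted glutathione peroxidase, had 9 to 17 counts and 8 or 9 counts.

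**Figure D1:**
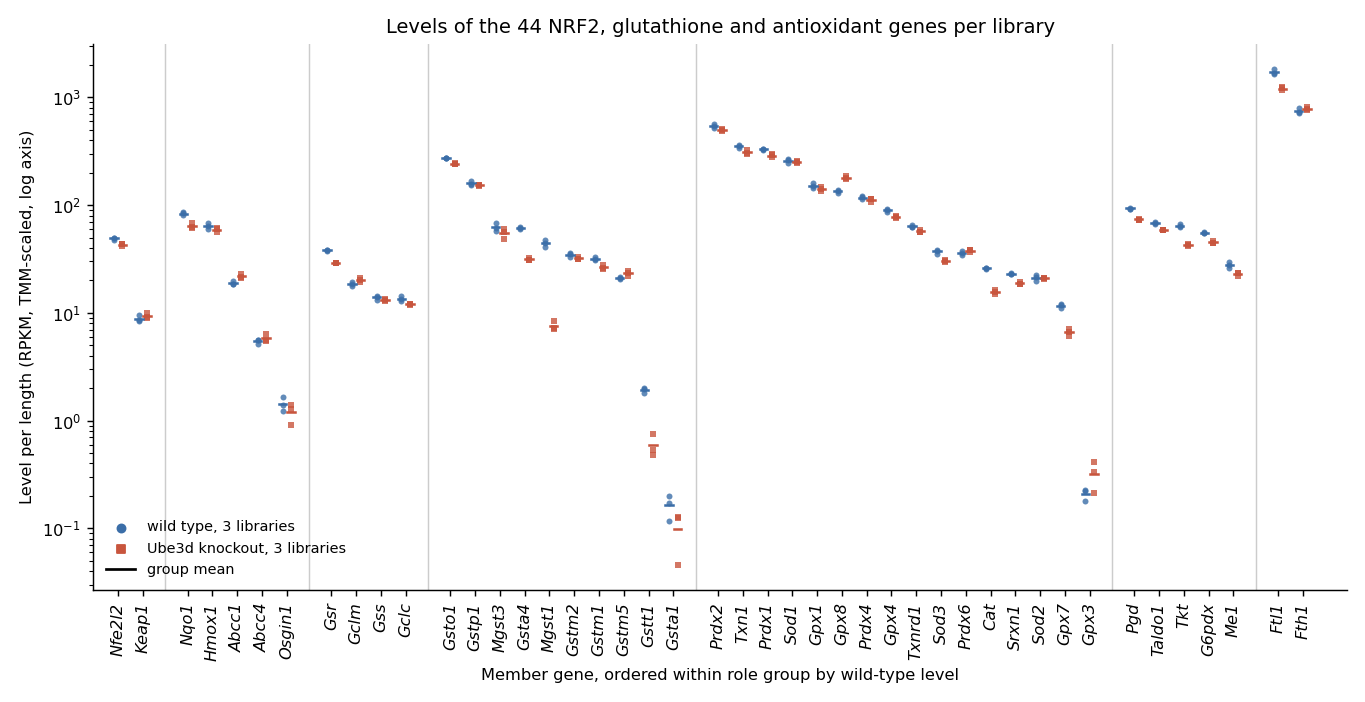
RPKM (log axis) of each of the 44 genes in each library, with genes ordered within role groups by their wild-type mean, circles for the 3 wild-type and squares for the 3 knockout libraries, and bars for group means. The pairs of symbols lie close together for most genes, and Mgst1 shows the widest gap, from 44.6 RPKM in wild type to 7.57 RPKM in the knockout.

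The transcripts covered a wide range of levels. The ferritin subunits were the most abundant members per length in wild type, with Ftl1 at 1724 ± 104 RPKM and Fth1 at 747 ± 39.9 RPKM. They were followed by the peroxiredoxin Prdx2 at 547 ± 21.05 RPKM, thioredoxin, Txn1, at 352 ± 9.92 RPKM, and Prdx1 at 330.01 ± 2.80 RPKM. The omega-class transferase Gsto1 (275 ± 1.98 RPKM) and the cytosolic dismutase Sod1 (258 ± 10.03 RPKM) came next. Neighbours in this order did not overlap between wild-type libraries. NRF2 mRNA itself was at 49.1 ± 1.00 RPKM and that of its inhibitor Keap1 at 8.87 ± 0.567 RPKM. All members together made up 0.769% ± 0.0227 of wild-type CPM and 0.668% ± 0.00948 of knockout CPM. Every knockout library was below every wild-type library in this share.

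Many of the members are known NRF2 targets, and the promoter windows of RefSeq (GRCm38.p6, 250 bases before to 50 after each listed start) were searched on both strands for the letters of the antioxidant response element core, TGACNNNGC. Of the 37 members with a window, 12 hold a match (32.4%), against 16.9% of 9722 tested genes with a window. The 7 members without a window are Hmox1, Abcc1, Gclc, Gsr, Gsta4, Prdx6 and Sod3. By window, 13 of 48 member windows hold one (27.1%) and 12.4% of all 32851 windows. Members called lower hold a match in 8 of 22 cases, members called higher in 2 of 4 and members not called in 2 of 9. The AP-1 letters TGAGTCA, which can overlap the core, are in 6 of the 37 members (16.2%) and 4.58% of the tested genes. A match is a description of letters and not a binding site, and elements farther upstream are outside these windows. The matches of called members that begin before the start site follow on the gene's own strand, with the match in capitals; where the capitals end in GTCA the core reads on the opposite strand. They are printed so that falling and rising members can be compared.
Nfe2l2, chr2:75704870-75704913, minus strand: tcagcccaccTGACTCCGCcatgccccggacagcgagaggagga
Gclm, chr3:122245398-122245456, plus strand: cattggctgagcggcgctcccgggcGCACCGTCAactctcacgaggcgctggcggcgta
Gstm5, chr3:107895787-107895845, plus strand: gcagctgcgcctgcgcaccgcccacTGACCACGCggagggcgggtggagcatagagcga
Mgst1, chr6:138140446-138140504, plus strand: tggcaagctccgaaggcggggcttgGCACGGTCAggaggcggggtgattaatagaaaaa
Txnrd1, chr10:82859089-82859147, plus strand: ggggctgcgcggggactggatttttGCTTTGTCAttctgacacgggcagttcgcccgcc
Prdx1, chr4:116685441-116685499, plus strand: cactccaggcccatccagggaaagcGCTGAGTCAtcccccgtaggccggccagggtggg
G6pdx, chrX:74428904-74428962, minus strand: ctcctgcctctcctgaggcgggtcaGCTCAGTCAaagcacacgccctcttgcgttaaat
Me1, chr9:86695887-86695945, minus strand: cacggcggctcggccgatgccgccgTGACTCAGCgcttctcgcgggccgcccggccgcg
In Prdx1 and Me1 the match overlaps the AP-1 letters, and in the other 6 shown it does not. Mgst1, with the largest fall, and Gclm and Gstm5, which were higher, all carry the core letters, and Srxn1 and Pgd, both lower, have a match that begins after the start site and is not shown.

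**Figure D2:**
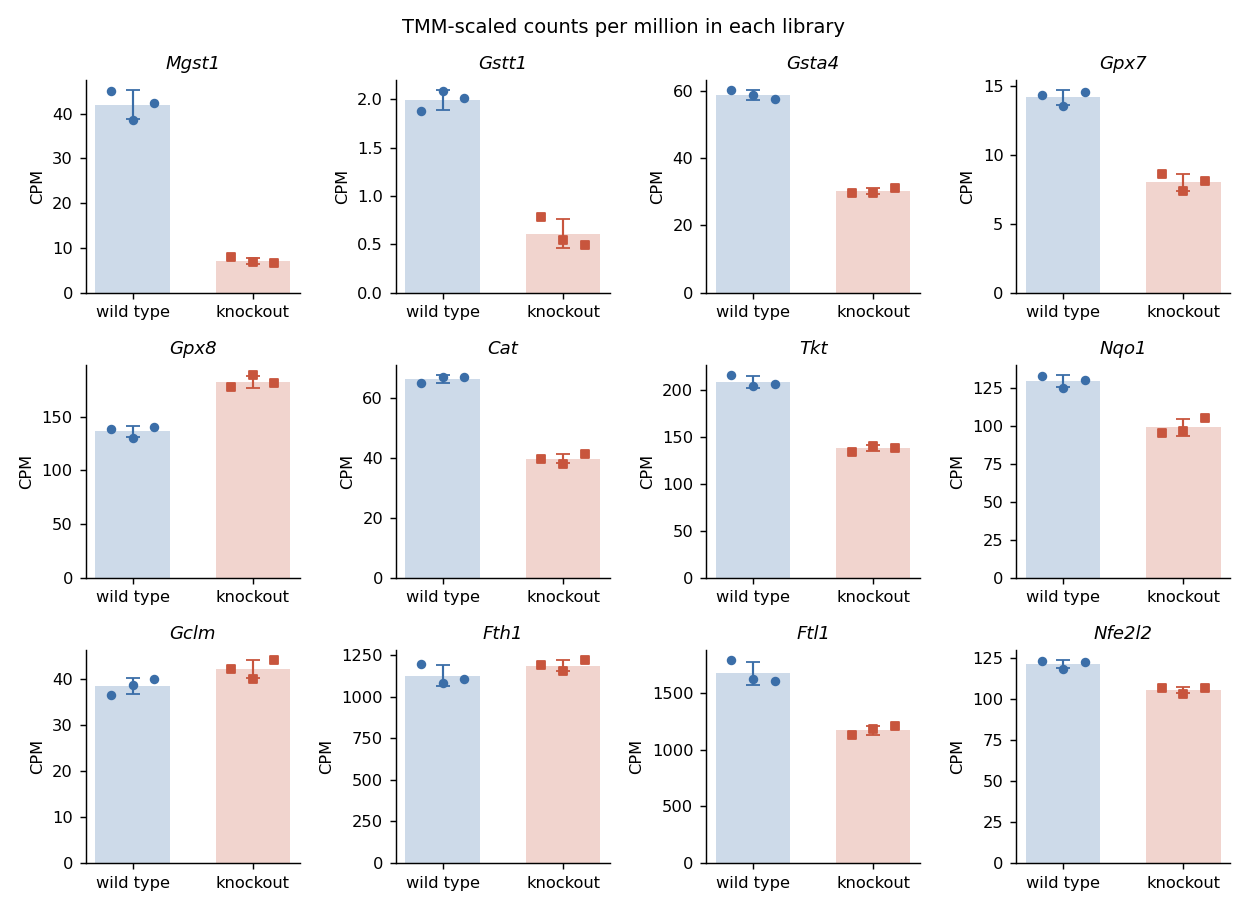
TMM-scaled CPM of 12 members in each library (linear axes from 0), with bars for the group mean, error bars for the SD and points for the 3 libraries. Mgst1, Gstt1, Gsta4, Gpx7, Cat, Tkt, Nqo1, Ftl1 and Nfe2l2 are lower in all 3 knockout libraries, Gpx8 and Gclm are higher in all 3, and the Fth1 groups overlap.

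Of the pathway's regulators, Nfe2l2 was slightly lower and Keap1 showed no called difference. Nfe2l2 (chromosome 2, 75675519 to 75704641, minus strand, GRCm38) had 106, 103 and 107 CPM in the knockout libraries and 123, 118 and 122 CPM in the wild-type libraries. The groups did not overlap, and the difference was 1.15-fold (log2 −0.20, SE 0.03, adjusted p = 6.4e-07). Chromosome 2 genes were lower in general, with a median log2 change of −0.24 over its tested genes, so that Nfe2l2 lay 0.04 above that median. The part of the chromosome's shift in this value was not tested. Keap1, the adaptor that targets NRF2 for degradation, had 39.8, 44.5 and 41.03 CPM in the knockout libraries and 38.6, 37.7 and 42.5 CPM in the wild-type libraries. Its groups overlapped (log2 0.08, SE 0.05, adjusted p = 0.192), and without wild type replicate 3 the change was 0.13 with an adjusted p of 0.0426.

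Among NRF2's well-known detoxification and export targets, changes went both ways. Nqo1, the quinone reductase widely used as a readout of NRF2 activity, had 94.99, 96.3 and 105 CPM in the knockout libraries and 133, 125 and 130.2 CPM in the wild-type libraries. Every knockout library was below every wild-type library, a 1.31-fold decrease (log2 −0.39, SE 0.04, adjusted p = 3.6e-15). Hmox1, haem oxygenase 1, which degrades haem and is also a target of the repressor BACH1, had 88.1, 94.7 and 95.9 CPM in the knockout libraries and 107, 94.98 and 100.5 CPM in the wild-type libraries. The groups overlapped and the decrease was 1.08-fold (log2 −0.11, SE 0.04, adjusted p = 0.00849). This call was lost without knockout replicate 1 (adjusted p = 0.116) and without wild type replicate 1 (adjusted p = 0.102). Abcc1, an exporter of glutathione conjugates, had 124, 135 and 129 CPM in the knockout libraries and 109, 117 and 109.6 CPM in the wild-type libraries. The knockout libraries were all above, by 1.15-fold (log2 0.21, SE 0.04, adjusted p = 5.0e-07). The related exporter gene Abcc4 (log2 0.10, SE 0.06, adjusted p = 0.12) and the growth-inhibitor gene Osgin1 (log2 −0.25, SE 0.18, adjusted p = 0.23), which was at only 1.80 to 3.23 CPM, were not called.

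Genes of glutathione synthesis and reduction did not move as 1 block. Gclc, the catalytic subunit of glutamate-cysteine ligase, which performs the rate-limiting step, had 40.5, 41.00 and 41.6 CPM in the knockout libraries and 46.00, 43.97 and 49.3 CPM in the wild-type libraries. It fell by 0.18 on the log2 scale (SE 0.05, adjusted p = 0.00134), with no overlap between groups. Gclm, the modifier subunit of the same enzyme, had 42.2, 40.05 and 44.02 CPM in the knockout libraries and 36.6, 38.6 and 40.01 CPM in the wild-type libraries and did not overlap, although the lowest knockout library and the highest wild-type library nearly met. Its rise was 1.10-fold (log2 0.13, SE 0.05, adjusted p = 0.0208), and the call was lost with DESeq2 (adjusted p = 0.0983), without knockout replicate 3 (0.161) and without wild type replicate 1 (0.130). The RPKM ratio of Gclm to Gclc was 1.70 ± 0.0712 in the knockout and 1.37 ± 0.0721 in wild type, and its groups did not overlap. Gclm lies on chromosome 3, whose tested genes had a median log2 change of 0.30. Glutathione synthetase, Gss, which performs the second step, was not called (log2 −0.08, SE 0.06, adjusted p = 0.254). Glutathione reductase, Gsr, which restores reduced glutathione with NADPH, had 76.8, 77.8 and 76.98 CPM in the knockout libraries and 100.5, 102 and 102 CPM in the wild-type libraries. The knockout values lay between 76.8 and 77.8 CPM, below all wild-type values, and the decrease was 1.31-fold (log2 −0.39, SE 0.04, adjusted p = 3.1e-15).

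Glutathione transferases, which attach glutathione to electrophiles and lipid peroxidation products, held the largest decreases of the set. Of 9 tested, 6 were lower, 1 was higher and 2 were not called, with a median log2 change of −0.19. The share called was 77.8%, against 61.4% of all tested genes, of which 31.2% were lower and 30.3% higher. Mgst1 (chromosome 6, 138140537 to 138156752, plus strand), a membrane-bound transferase of the endoplasmic reticulum and outer mitochondrial membrane that also has peroxidase activity, had 7.86, 6.82 and 6.73 CPM in the knockout libraries and 45.1, 38.6 and 42.4 CPM in the wild-type libraries. Its counts were 186 to 200 in the knockout and 1054 to 1145 in wild type, a 5.89-fold decrease (log2 −2.56, SE 0.07, adjusted p = 1.6e-42). Mgst3, the related microsomal transferase, was at 35.02 ± 4.05 CPM in knockout cells and at 39.7 ± 3.26 CPM in wild-type cells. Its groups overlapped, and the fall of 0.17 on the log2 scale (SE 0.07, adjusted p = 0.0301) was lost without knockout replicate 1 (adjusted p = 0.210), without wild type replicate 1 (0.104), without wild type replicate 3 (0.120) and in a fit without chromosomes 2, 3, 5 and 12 (0.0589). Mgst1 made up 41.6% ± 0.456 of the summed RPKM of both genes in wild type and 12.2% ± 2.26 in the knockout.

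Gstt1 (chromosome 10, 75783813 to 75798584, minus strand), a theta-class cytosolic transferase, was scarce, with 20, 15 and 14 counts in the knockout libraries and 44, 62 and 54 in the wild-type libraries. The groups were apart, at 0.611 ± 0.153 CPM and 2.00 ± 0.103 CPM, and the decrease was 3.28-fold (log2 −1.71, SE 0.26, adjusted p = 5.9e-08). Gsta4 (chromosome 9, 78191966 to 78209349, plus strand), the alpha-class enzyme known for conjugating the lipid peroxidation product 4-hydroxynonenal, had 29.6, 29.6 and 31.1 CPM in the knockout libraries and 60.3, 58.7 and 57.5 CPM in the wild-type libraries. The decrease was 1.95-fold (log2 −0.97, SE 0.05, adjusted p = 3.1e-28). Gsto1, the most abundant transferase of the set per length, had 277, 279 and 285 CPM in the knockout libraries and 319.5, 317 and 321 CPM in the wild-type libraries, a 1.14-fold decrease (log2 −0.19, SE 0.03, adjusted p = 8.0e-08).

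The mu-class genes lie together on chromosome 3 and differed among themselves. Gstm1 had 34.1, 33.1 and 35.8 CPM in the knockout libraries and 42.7, 39.8 and 40.6 CPM in the wild-type libraries and fell by 0.25 on the log2 scale (SE 0.05, adjusted p = 1.8e-05). Gstm2 was not called (log2 −0.10, SE 0.05, adjusted p = 0.103), except without wild type replicate 2 (adjusted p = 0.0384). Gstm5 was higher in each knockout library, at 21.2 ± 1.26 CPM against 19.2 ± 0.327 CPM (log2 0.15, SE 0.07, adjusted p = 0.0458), but the call was lost in 8 of 13 alternatives, where the adjusted p reached 0.235. A gene on the other strand, 4933431E20Rik, covers 15.9% of the Gstm5 exon bases and had a log2 change of 0.61, and the labels do not state the strand setting of the counts. All 3 mu-class members lay below the chromosome 3 median, by 0.56 for Gstm1, by 0.40 for Gstm2 and by 0.15 for Gstm5. Gstp1, the pi-class enzyme, lay below wild type in each knockout library without passing the test (log2 −0.06, SE 0.03, adjusted p = 0.149), and was called lower without wild type replicate 3 (adjusted p = 0.0494).

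Glutathione peroxidases showed opposite changes in a pair of related genes. Gpx7 and Gpx8 encode the peroxidases of the endoplasmic reticulum that act beside protein disulfide isomerase. Gpx7 (chromosome 4, 108400217 to 108406713, minus strand) had 8.61, 7.37 and 8.11 CPM in the knockout libraries and 14.4, 13.6 and 14.6 CPM in the wild-type libraries, a 1.77-fold decrease (log2 −0.82, SE 0.09, adjusted p = 9.4e-13). Gpx8 (chromosome 13, 113042763 to 113046388, minus strand) had 178, 189 and 181 CPM in the knockout libraries and 139, 130.5 and 140.2 CPM in the wild-type libraries, a 1.34-fold increase (log2 0.42, SE 0.03, adjusted p = 3.6e-19) and the largest rise of any member. In both genes the groups did not overlap. Per length, Gpx8 was at 134 ± 5.16 RPKM in wild type and Gpx7 at 11.7 ± 0.451 RPKM, so that the rising gene was the more abundant. The selenoenzyme Gpx4, which reduces lipid hydroperoxides and restrains ferroptosis, was at 119 ± 2.61 CPM in knockout cells and at 138 ± 3.88 CPM in wild-type cells (log2 −0.21, SE 0.03, adjusted p = 1.5e-07). Gpx1, the main cytosolic selenoperoxidase, had overlapping groups (log2 −0.10, SE 0.03, adjusted p = 0.00664), and its call was lost without knockout replicate 1 (adjusted p = 0.0695) and without wild type replicate 1 (0.112). The summed RPKM of the 5 glutathione peroxidase members was 406 ± 11.02 in the knockout and 388 ± 12.4 in wild type, with overlapping groups.

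Catalase, Cat (chromosome 2, 103453904 to 103485153, minus strand), the peroxisomal enzyme that splits hydrogen peroxide, had 39.8, 38.1 and 41.3 CPM in the knockout libraries and 64.9, 67.1 and 67.2 CPM in the wild-type libraries. The decrease was 1.67-fold (log2 −0.74, SE 0.05, adjusted p = 9.0e-24), and the log2 change was 0.50 below the median of chromosome 2. Of the peroxiredoxins, which reduce peroxides with electrons from thioredoxin, Prdx2 had 469, 462 and 476 CPM in the knockout libraries and 516, 494 and 534 CPM in the wild-type libraries and fell by 0.13 on the log2 scale (SE 0.03, adjusted p = 7.5e-05). Prdx1 fell by 0.20 (SE 0.03, adjusted p = 2.7e-08), and neither Prdx4 of the endoplasmic reticulum (log2 −0.07, SE 0.04, adjusted p = 0.0613) nor the 1-Cys enzyme gene Prdx6 (log2 0.07, SE 0.04, adjusted p = 0.1) was called. Prdx4 was called lower in 3 alternatives, with an adjusted p down to 0.0172, and Prdx6 was called higher in the fit without chromosomes 2, 3, 5 and 12 (0.0311) and without wild type replicate 1 (0.0360). The summed RPKM of these 4 peroxiredoxins was 935 ± 1.45 in the knockout and 1030.4 ± 25.4 in wild type, without overlap.

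The thioredoxin system and sulfiredoxin were lower by small amounts. Txn1 fell by 0.18 on the log2 scale (SE 0.03, adjusted p = 5.9e-07) and the reductase Txnrd1 by 0.15 (SE 0.03, adjusted p = 1.5e-05), each without overlap between groups. Srxn1, sulfiredoxin, which rescues over-oxidised peroxiredoxins and is a strong NRF2 target, had 52.2, 51.97 and 54.1 CPM in the knockout libraries and 64.6, 65.5 and 64.97 CPM in the wild-type libraries. It fell by 0.30 (SE 0.04, adjusted p = 5.2e-09), and all tested genes of its chromosome 2 had a median log2 change of −0.24. The 3 superoxide dismutases differed. Sod1 of the cytosol (log2 −0.04, SE 0.03, adjusted p = 0.244) and Sod2 of the mitochondrial matrix (log2 −0.02, SE 0.04, adjusted p = 0.73) were not called, while the secreted Sod3 had 60.7, 61.4 and 63.3 CPM in the knockout libraries and 78.1, 72.4 and 77.5 CPM in the wild-type libraries. Sod3 fell by 0.30 (SE 0.04, adjusted p = 3.7e-09), although tested genes of its chromosome 5 had a median log2 change of 0.19.

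**Figure D3:**
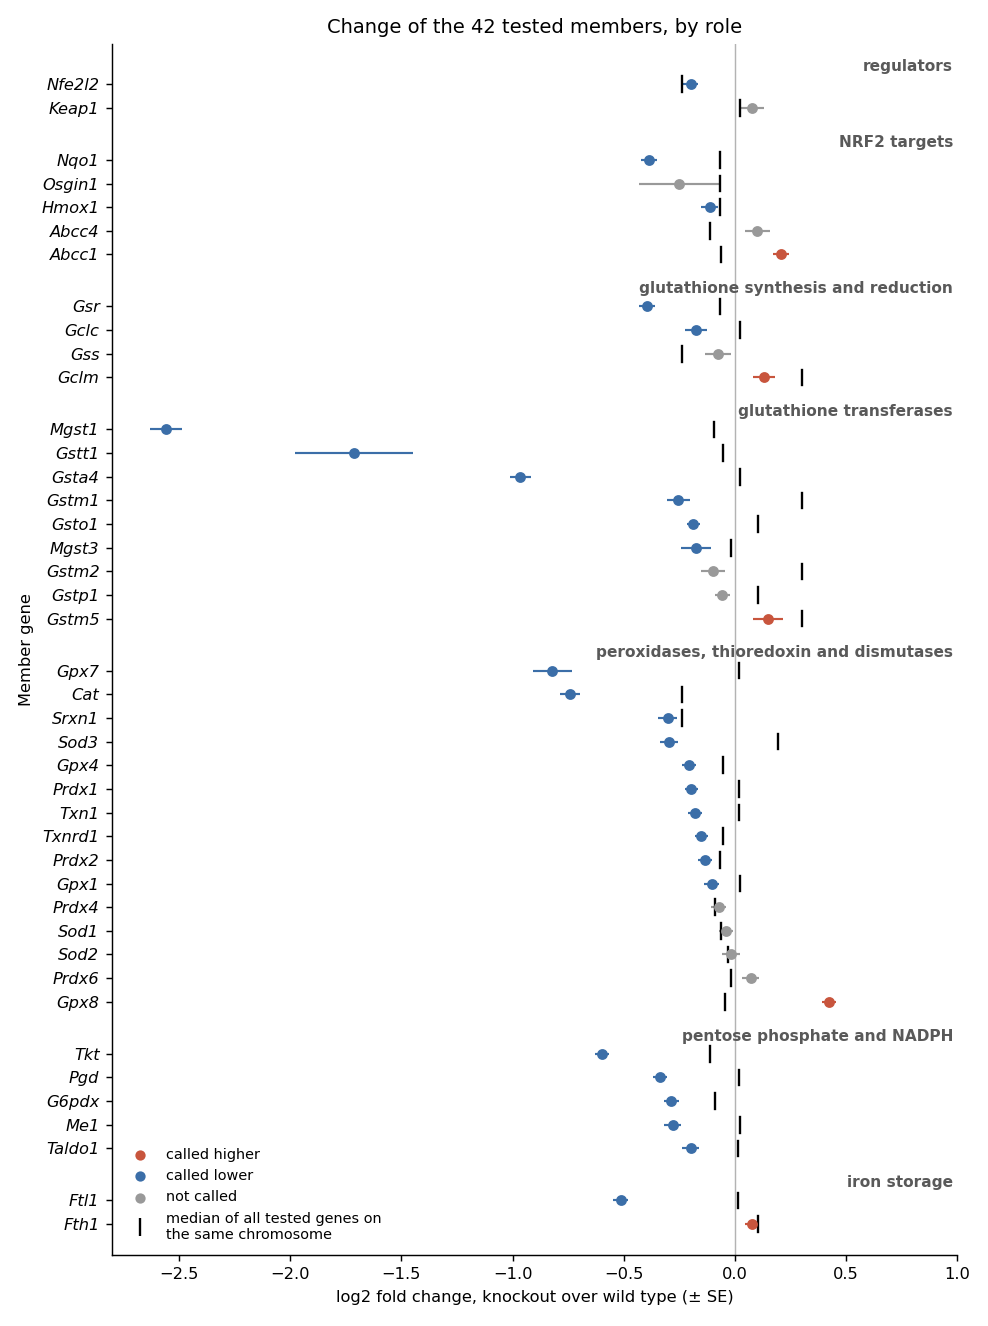
log2 fold change (edgeR) of the 42 tested members by role, coloured by call, with error bars for the SE derived from the F statistic. A black mark shows the median of all tested genes on the same chromosome. Most points lie between −0.4 and 0, and 32 of 42 lie below their chromosome's mark.

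All 5 genes of the pentose phosphate pathway and NADPH supply were lower, each without overlap between groups, with a median log2 change of −0.29. Over all tested genes 31.2% were lower and 32.5% lay wholly below wild type. Among genes at a mean of 20 CPM or more 39.4% were lower. Transketolase, Tkt (chromosome 14, 30549131 to 30574726, plus strand), an enzyme of the non-oxidative branch, changed most and had 134, 141 and 139 CPM in the knockout libraries and 216, 204 and 206 CPM in the wild-type libraries. Its decrease was 1.51-fold (log2 −0.60, SE 0.03, adjusted p = 2.2e-27). In the oxidative branch, 6-phosphogluconate dehydrogenase, Pgd, had 162, 163 and 167 CPM in the knockout libraries and 206, 205 and 211 CPM in the wild-type libraries, a 1.26-fold decrease (log2 −0.34, SE 0.03, adjusted p = 6.4e-16). Glucose-6-phosphate dehydrogenase, G6pdx, which commits glucose to the pathway, had 118, 121 and 117 CPM in the knockout libraries and 143, 144 and 147 CPM in the wild-type libraries, a 1.22-fold decrease (log2 −0.29, SE 0.03, adjusted p = 5.3e-12). Transaldolase, Taldo1, had 75.6, 75.8 and 74.3 CPM in the knockout libraries and 88.2, 84.5 and 86.3 CPM in the wild-type libraries and fell by 0.20 on the log2 scale (SE 0.04, adjusted p = 6.6e-06). Malic enzyme, Me1, which makes NADPH outside the pathway, had 83.9, 83.03 and 78.5 CPM in the knockout libraries and 100.1, 92.9 and 105 CPM in the wild-type libraries and fell by 0.28 (SE 0.04, adjusted p = 4.2e-09). Me1 (chromosome 9, 86581363 to 86695914, minus strand) lies 116 kb from the knocked-out gene Ube2cbp on the same chromosome. Of the 11 other tested genes listed around Ube2cbp up to 980 kb away, Me1 included, 5 were lower, 2 higher and 4 not called. The share called over all tested genes was 61.4%, with 31.2% lower and 30.3% higher.

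The ferritin subunits parted. Ferritin stores iron in a shell of heavy and light chains, and both genes are also controlled at translation by iron. The light chain gene Ftl1 (chromosome 7, 45457944 to 45459886, minus strand) had 1128, 1178 and 1205 CPM in the knockout libraries and 1788, 1625 and 1603 CPM in the wild-type libraries, a 1.43-fold decrease without overlap (log2 −0.51, SE 0.03, adjusted p = 2.5e-19). The heavy chain gene Fth1 (chromosome 19, 9980600 to 9985111, plus strand), which carries the ferroxidase activity, had 1189, 1155 and 1221 CPM in the knockout libraries and 1197, 1082 and 1107 CPM in the wild-type libraries. Its groups overlapped (log2 0.07, SE 0.03, adjusted p = 0.03), and the call was lost in 6 of 14 alternatives, among them without wild type replicate 2 (adjusted p = 0.216) and without knockout replicate 3 (0.219). Chromosome 19, where Fth1 lies, had a median log2 change of 0.10 over its tested genes. The ratio of Fth1 to Ftl1 RPKM was 0.652 ± 0.0234 in the knockout libraries, from 0.630 to 0.677, and 0.434 ± 0.00862 in the wild-type libraries, from 0.428 to 0.443.

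Some members have near copies in the genome, and the handling of multi-mapping reads in the counting is not stated in the labels. Of all 50-base stretches of the longest coding transcript in GENCODE M21, 78.9% in Ftl1, 62.3% in Gstp1, 61.7% in Gpx4, 26.5% in Me1, 23.1% in Gstm1, 23.1% in Sod1 and 89.7% in Gsta1 also occur in another gene's transcript. The values of these 7 genes, those with over 20% shared, are uncertain to that extent. Another 10 members share a smaller part, the most in Taldo1 and Prdx1 (10.9% each), Gstm2 (9.36%), Prdx2 (8.96%) and G6pdx (7.65%). For 27 members no such stretch was shared, among them Mgst1, Gstt1, Gsta4, Gpx7, Gpx8, Cat, Tkt, Nqo1 and Gsr.

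The members lie on 17 chromosomes, and 9 of them lie on chromosomes 2, 3 and 5, which together with chromosome 12 had the most shifted medians. Chromosomes 14 and 19, counted among the rest, had median log2 changes of −0.11 and 0.10. Among the 33 tested members off chromosomes 2, 3, 5 and 12, those called lower numbered 22 and those called higher 3, with a median log2 change of −0.18. Of all 10021 tested genes there, 32.3% were lower and 25.9% higher, with a median of −0.02. On the 4 chromosomes 5 of 9 members were lower and 2 higher, with a median of −0.20. Of all 2918 tested genes there, 27.3% were lower and 45.3% higher, with a median of 0.12. Against the median of its own chromosome, the log2 change was lower for 32 of 42 members and higher for 10. These medians are over tested genes at every level. All genes at a mean of 20 CPM or more had a median log2 change of −0.03, against 0.004 over all tested genes. The part of abundance in this split was not tested.

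Other genes of the same systems were read from 9 lists. The lists were written from textbook roles, with earlier results of these data known. They hold 230 genes in the table, of which 189 were tested. Of these, 86 were lower (45.5%) and 43 higher (22.8%), with a median log2 change of −0.09. The share called, 68.3%, was near that of all tested genes (61.4%, with 31.2% lower and 30.3% higher) and of those at 20 CPM or more (69.1%), and the counts of the single lists are given as descriptions beside these shares. The list closest to the members, other NRF2 target genes, had 17 lower and 4 higher of 25, with a median of −0.33. Akr1c14, an aldo-keto reductase, was at 5.26 ± 0.214 CPM in knockout cells and at 20.7 ± 1.28 CPM in wild-type cells (log2 −1.97, SE 0.09, adjusted p = 4.7e-31). Nqo2, the relative of Nqo1, fell 1.47-fold (log2 −0.56, SE 0.05, adjusted p = 6.9e-15), and the carbonyl reductase gene Cbr3 fell 1.70-fold (log2 −0.77, SE 0.07, adjusted p = 7.4e-15).

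**Figure D4:**
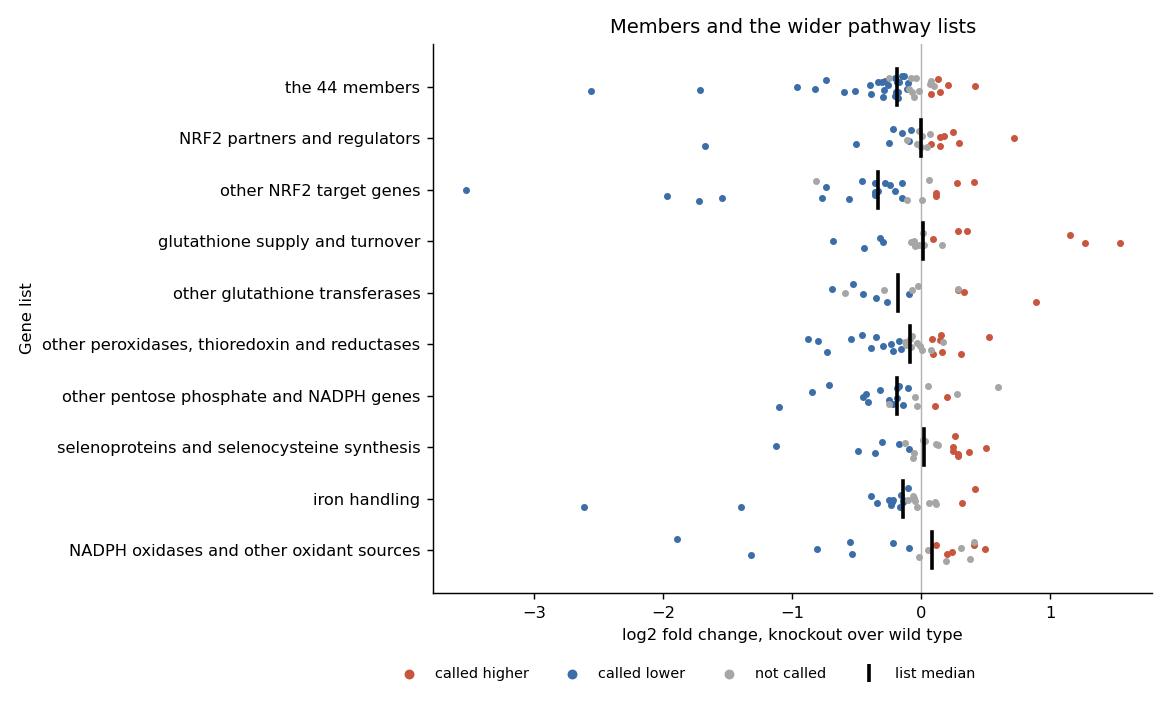
log2 fold change of each tested gene in the set and in 9 wider lists, coloured by call, with a bar at each list's median. The other NRF2 target genes have the lowest median (−0.33), and the partners and regulators of NRF2 are centred on 0.001.

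NRF2 partners and regulators had 7 lower and 7 higher of 21 (33.3% each), near the shares of all tested genes. Bach2, a repressor that competes for the same elements, was at 1.35 ± 0.189 CPM against 4.35 ± 0.409 CPM (log2 −1.67, SE 0.18, adjusted p = 1.0e-12). Cul3, the scaffold of the ligase that carries KEAP1, fell by 0.25 on the log2 scale (SE 0.03, adjusted p = 2.0e-10), and Nfe2l1, the NRF2 relative that controls proteasome genes, rose by 0.17 (SE 0.03, adjusted p = 1.1e-06). Glutathione supply and turnover had 6 higher and 4 lower of 17. Ggct, which breaks down gamma-glutamyl amino acids in glutathione turnover, was at 10.4 ± 0.950 CPM against 3.59 ± 0.747 CPM, a 2.91-fold rise (log2 1.54, SE 0.12, adjusted p = 1.1e-18). The aminopeptidase gene Anpep rose 2.23-fold (log2 1.16, SE 0.08, adjusted p = 1.5e-20), and Esd, which hydrolyses S-formylglutathione, fell 1.36-fold (log2 −0.44, SE 0.03, adjusted p = 3.8e-21). Other glutathione transferases and relatives had 6 lower and 3 higher of 14, and the zeta-class gene Gstz1 on chromosome 12 rose 1.85-fold (log2 0.89, SE 0.07, adjusted p = 3.1e-18). In that list the translation factor gene Eef1g, which carries a transferase-like domain, fell 1.37-fold (log2 −0.45, SE 0.03, adjusted p = 1.7e-22) and the chloride channel relative Clic4 fell by 0.26 (SE 0.03, adjusted p = 1.8e-11).

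Other peroxidases, thioredoxins and reductases had 12 lower and 7 higher of 29. The paraoxonase gene Pon2 fell 1.84-fold (log2 −0.88, SE 0.08, adjusted p = 1.4e-16), the reductase gene Txnrd3 1.66-fold (log2 −0.73, SE 0.07, adjusted p = 1.6e-14) and the methionine sulfoxide reductase gene Msrb3 1.27-fold (log2 −0.35, SE 0.04, adjusted p = 9.0e-14). The other pentose phosphate and NADPH genes had 14 lower and 2 higher of 22, with a median of −0.19. Idh1, the cytosolic NADPH-producing isocitrate dehydrogenase, was at 67.1 ± 1.32 CPM against 144 ± 2.38 CPM, a 2.15-fold decrease (log2 −1.10, SE 0.04, adjusted p = 2.0e-39). The mitochondrial NAD kinase gene Nadk2 fell 1.64-fold (log2 −0.71, SE 0.04, adjusted p = 3.7e-23) and the mitochondrial folate enzyme gene Aldh1l2 1.33-fold (log2 −0.41, SE 0.04, adjusted p = 1.5e-16).

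Iron handling genes had 13 lower and 2 higher of 23. Heph, the ferroxidase hephaestin, which works with the iron exporter, was at 3.84 ± 0.291 CPM against 23.6 ± 1.05 CPM, a 6.11-fold decrease (log2 −2.61, SE 0.09, adjusted p = 2.6e-37). Slc40a1, that exporter, ferroportin, was at 3.64 ± 0.405 CPM against 9.59 ± 0.527 CPM (log2 −1.40, SE 0.12, adjusted p = 3.6e-17), and the ferrireductase gene Steap3 rose by 0.32 (SE 0.03, adjusted p = 3.4e-14). Selenoproteins and selenocysteine synthesis genes had 7 higher and 6 lower of 20. Sepw1 rose 1.42-fold (log2 0.51, SE 0.04, adjusted p = 2.9e-17), while Sephs2, which makes the selenium donor, fell 1.41-fold (log2 −0.49, SE 0.04, adjusted p = 4.5e-17) and the secreted selenium carrier Sepp1 2.18-fold (log2 −1.13, SE 0.10, adjusted p = 2.7e-16). NADPH oxidases and other oxidant sources had 7 lower and 5 higher of 18. The lysyl oxidase gene Lox fell by 1.89 on the log2 scale (SE 0.03, adjusted p = 7.0e-57), monoamine oxidase, Maoa, fell 1.45-fold (log2 −0.54, SE 0.04, adjusted p = 1.1e-21), and the reductase gene Cyb5r3 rose 1.33-fold (log2 0.41, SE 0.03, adjusted p = 1.5e-20).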

How the data were processed

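Total RNA of 3 wild-type and 3 Ube3d knockout 3T3-L1 samples was sequenced from stranded KAPA libraries after rRNA depletion, per the labels' protocols. The submitters' processing notes name STAR 2.6.1d, featureCounts 1.6.3 and the build GRCm38 (mm10). The deposited values are raw counts per gene, made by the authors and not normalized. The other deposited tables are not used here. Counts were tested with edgeR 4.0.16 (R 4.3.3): TMM scaling, filterByExpr defaults, a robust quasi-likelihood fit over 12947 genes and Benjamini-Hochberg adjustment. Counts range from 23767181 to 29389480 per library, of which Rn45s, the ribosomal RNA precursor, takes 9.68% to 10.2% in the knockout and 7.28% to 8.91% in wild type. Alternatives were RLE scaling, no filter, a filter at 1 CPM, DESeq2 1.42.0, limma-voom (limma 3.58.1), a replicate block, leaving out Rn45s, leaving out chromosomes 2, 3, 5 and 12, and leaving out each library. The procedure was also run on simulated data, in which few genes changed and no chromosome was shifted, a setting unlike these data. The members and lists were chosen with earlier results of these data known. Values per library are given for Nfe2l2, Keap1 and, by role, up to 5 called genes with the largest change and the most abundant gene. In the wider lists the 3 genes with the smallest adjusted p are named.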

Additional observations from a re-analysis of the deposited data

How the results depend on the processing

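Of the 32 called members, 26 kept their direction and call in every alternative in which they were fitted. For 21 of them these were all 14, and for Cat, Gstm1, Nfe2l2, Sod3 and Srxn1 they were 13, since the fit without chromosomes 2, 3, 5 and 12 leaves them out. Fth1, Gclm, Gstm5, Hmox1, Gpx1 and Mgst3 lost the call in at least 1, and of the 10 uncalled members 5 (Gstm2, Gstp1, Keap1, Prdx4 and Prdx6) gained one in at least 1. Members called higher numbered 5, but 2 with DESeq2 and 3 with no filter on low counts. Leaving out a library gave 2 to 4, with 2 without knockout replicate 3 and 3 without wild type replicate 2. Members called lower numbered 24 to 29 when a library was left out. The median log2 change was −0.16 without chromosomes 2, 3, 5 and 12, where 33 members were tested, and −0.20 to −0.17 when a library was left out. Sod2, not called, changed sign to 0.0057 without those chromosomes, and leaving out a library moved it from −0.062 to 0.018, with the positive end at wild type replicate 3. The cause of these shifts was not tested. Genes called over the whole table numbered 5752 to 8196, the lowest without those 4 chromosomes, where fewer genes were tested. The replicate block gave 7816 called genes, with 4 members higher and 27 lower (Gstm5 lost its call, adjusted p = 0.0566). Samples with the same replicate number showed no positive correlation of their deviations from the group means (Pearson r −0.029, −0.031 and −0.031 across genes). Deviations within a genotype depend on each other and include counting noise, so these values cannot exclude a pairing. The depth limits Gsta1, Gpx3, Gstt1 and Osgin1, which had few counts.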
